A study of Mus musculus with 26 samples.

Results

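The alpha-globin and beta-globin loci of the mouse were located among the domain boundaries of stem cells, which make no red blood cells. The 8 genes described are Nprl3, Hba-x, Hba-a1 and Hba-a2 of the alpha locus on chromosome 11, and Hbb-y, Hbb-bh1, Hbb-bs and Hbb-bt of the beta locus on chromosome 7. They were taken by symbol from RefSeq's gene table for GRCm38.p6 (mm10), and all 8 had a position there, of 21521 protein-coding genes in all. The study applied Micro-C, a chromosome contact assay that cuts chromatin with micrococcal nuclease, to 26 libraries in 5 groups. All came from 1 cell line, a Bruce-4 derivative with C57BL/6J genotype in which the cohesin subunit RAD21 carries a dTAG degron, so the vehicle controls carry the tag too. Stem cells in G1 were grown in serum/2i/LIF medium and were given the vehicle DMSO at 0.05% v/v, the degrader dTAG at 500 nM, or A485, which blocks the p300 and CBP histone acetyltransferases, at 20 µM, with 6 libraries each. Epiblast-like cells received DMSO or dTAG, with 4 libraries each.

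The values below come from 1 list of 3515 boundary intervals of 25 kb that was made from the 6 DMSO libraries together. A boundary is a place across which contacts are depleted, and a domain is taken here as the stretch between neighbouring boundaries. The list holds no score and no value of a single library, so there is no replicate error, no test was possible, and contact depth is unknown. The dTAG, A485 and epiblast-like groups were not analysed here. The list holds no expression values either, so the labelled cell type was not checked against marker genes. A difference between distances that is smaller than the 25 kb interval cannot be resolved where the distances are measured to different boundaries.

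Haemoglobin of red blood cells is built from alpha-type and beta-type chains, and each type is encoded by a tandem cluster of related genes. Within each cluster some genes are used in the primitive red cells of the early embryo (Hba-x, Hbb-y, Hbb-bh1) and others in definitive red cells of the fetus and adult (Hba-a1, Hba-a2, Hbb-bs, Hbb-bt). Remote enhancers drive both clusters: those of the alpha genes lie largely in introns of Nprl3, a housekeeping gene for a subunit of the GATOR1 complex of amino acid sensing, and those of the beta genes form the locus control region beyond Hbb-y. Hbb-bs and Hbb-bt are the adult pair of the haplotype carried by C57BL/6 mice.

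The sequences just upstream of the globin genes show how alike the tandem copies are that lie side by side in a domain. RefSeq promoter sequences of GRCm38.p6, from 250 bases before to 50 after the annotated start, were matched for 7 of the 8 genes, all but Hbb-bh1. The stretch from 120 bases before to 30 after the start is given 5′ to 3′ for the 6 globin genes. Capitals mark every match, on the strand shown, to the box motif CCAAT, the Klf-type motif CACCC, the Gata-type motif AGATAA or the Tata-type motif ATAAAA, kinds of motif long described in globin promoters and other elements active in red cells.
Hba-x (chr11:32276480-32276629, plus strand): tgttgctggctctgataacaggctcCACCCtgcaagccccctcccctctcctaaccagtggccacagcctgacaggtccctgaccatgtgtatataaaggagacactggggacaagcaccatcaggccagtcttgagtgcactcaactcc
Hba-a1 (chr11:32283552-32283701, plus strand): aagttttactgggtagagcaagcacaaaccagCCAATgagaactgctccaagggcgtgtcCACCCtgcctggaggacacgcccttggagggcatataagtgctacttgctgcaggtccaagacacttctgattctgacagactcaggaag
Hba-a2 (chr11:32296372-32296521, plus strand): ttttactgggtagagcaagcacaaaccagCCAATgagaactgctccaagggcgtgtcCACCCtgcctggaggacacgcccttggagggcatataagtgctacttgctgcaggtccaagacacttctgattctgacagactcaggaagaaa
Hbb-y (chr7:103853178-103853327, minus strand): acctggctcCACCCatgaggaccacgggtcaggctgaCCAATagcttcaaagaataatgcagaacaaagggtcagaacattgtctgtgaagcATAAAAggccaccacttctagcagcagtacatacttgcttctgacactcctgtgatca
Hbb-bs (chr7:103827899-103828048, minus strand): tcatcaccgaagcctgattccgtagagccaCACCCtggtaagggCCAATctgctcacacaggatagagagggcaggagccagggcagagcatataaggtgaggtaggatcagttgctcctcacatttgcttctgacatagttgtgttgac
Hbb-bt (chr7:103813894-103814043, minus strand): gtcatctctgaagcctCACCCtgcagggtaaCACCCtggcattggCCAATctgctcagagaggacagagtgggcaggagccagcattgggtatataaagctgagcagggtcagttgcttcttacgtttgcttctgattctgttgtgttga

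Hba-a1 and Hba-a2 were identical in 297 of 303 aligned columns (98%), and the remaining 6 columns were gaps at the ends of the windows, whose annotated starts differ slightly. The adult beta genes Hbb-bt and Hbb-bs were less alike, with 72.7% identity. The embryonic Hbb-y shared 56.2% with Hbb-bt and 55.2% with Hbb-bs, and the embryonic Hba-x shared 52.6% with Hba-a1. These values lie close to those of pairs that are not copies of one cluster, since an alpha-type and a beta-type promoter shared 48.2 to 51.9%, and Nprl3 shared 46.6 to 48.9% with the globin promoters. How reads were placed among near-identical copies such as Hba-a1 and Hba-a2 is not given in the sources used here.

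Motifs were counted on both strands of the whole 300-base window. CCAAT stood ahead of every globin gene with a sequence except Hba-x: its first base was 88 bases before the start in Hba-a1, 91 in Hba-a2, 83 in Hbb-y, 75 in Hbb-bt and 76 in Hbb-bs. Over all 32851 RefSeq promoters of the same length, 37.4% held CCAAT on either strand. CACCC stood ahead of all 6, between 60 bases (Hba-a1) and 198 bases (Hba-x) before the start, and 57.5% of all promoters held it. The 6 promoters belong to related genes and are not separate observations, and these motifs are kinds long described in globin promoters. The counts were therefore not tested against the shares over all promoters. Hbb-bt also held 2 copies of CCAAT on the other strand. Hbb-bt had 3 copies of CACCC, at 89, 104 and 140 bases, where Hbb-bs had 1, at 90 bases. ATAAAA was found in Hbb-y alone, 28 bases before the start (18.5% of all promoters), and AGATAA in Hbb-bs alone, 210 bases before the start (11.2%). Only these exact letters were counted. ATATAA, which differs from ATAAAA by 1 letter, stands in each stretch shown except that of Hbb-y. TGATAA, which differs from AGATAA by 1 letter, stands in the windows of Hba-x, Hba-a1 and Hba-a2. It also stands in that of Hbb-y, on the other strand. The counts thus do not tell which promoters lack a Tata-type or Gata-type site. None of the 4 motifs was found in the window of Nprl3. That promoter differed from the globin promoters in CpG dinucleotides as well, with 20 in 300 bases against 1 to 4. The median over all promoters was 7, and 73.5% of promoters held fewer than Nprl3. Its GC content of 52% lay within the range of the globin promoters, 43.3% (Hbb-y) to 57.3% (Hba-x). These matches are of letters in a reference sequence and show no binding.

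At the alpha locus, the 4 genes lay in a domain of 975 kb, chr11:32175001-33150000, and close to its lower end. Nprl3 (chr11:32231963-32267707) began 57 kb from the lower boundary, which lies at chr11:32150001-32175000. Hba-x, the embryonic zeta-type gene, followed at 102 kb (chr11:32276600-32278116). Hba-a1 lay at 109 kb (chr11:32283672-32284486) and Hba-a2 at 121 kb (chr11:32296492-32297310). The distance to the other boundary was between 852.7 kb for Hba-a2 and 882.3 kb for Nprl3, so the nearer ends of all 4 lay within 12.5% of the domain length from its lower edge. Nprl3 filled the space between the other neighbours and the globin genes: it is 35745 bases long and ended 8.89 kb before Hba-x. It runs on the minus strand, so its start of transcription faced the globin genes, at 92.7 kb from the boundary, while the globin genes run on the plus strand, away from that boundary.

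The theta-globin genes Hbq1b and Hbq1a completed the alpha cluster at 112 and 125 kb, which made 5 globin genes within 24.3 kb, or 2.49% of the domain. The domain held 17 protein-coding genes in all. Between the lower boundary and Nprl3 lay Il9r, the interleukin 9 receptor, at 12.5 kb, Snrnp25, a protein of the minor spliceosome, at 30.4 kb, Rhbdf1, a rhomboid-like protein, at 34.6 kb and Mpg, a DNA glycosylase of base excision repair, at 51.5 kb. On the other side of the globin genes came Sh3pxd2b, an adaptor of podosomes, at 173 kb, Ubtd2 at 280 kb, Efcab9, part of the sperm calcium channel complex, at 348 kb and the kinase gene Stk10 at 358 kb. Fbxw11, a substrate receptor of a ubiquitin ligase, began 468 kb and Smim23 645 kb from the lower boundary. Fgf18, a fibroblast growth factor, lay at the far end, 2.6 kb from the higher boundary. Of the 17 genes, 10 thus lay between the lower boundary and the far end of Hbq1a, and the remaining 7 were spread over the rest of the domain.

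The boundaries on either side of the alpha domain differed in what they held. The lower interval held no protein-coding gene, only the long noncoding RNA gene Gm40823, and the nearest protein-coding genes were Il9r on the globin side and Nsg2, 90.8 kb away on the other. The higher interval, chr11:33150001-33175000, held the whole of Npm1, the gene of the abundant nucleolar protein nucleophosmin, and beyond it lay Tlx3 at 25.8 kb. Next to the alpha domain lay domains of 200 kb on the lower side and 750 kb on the higher side.

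**Figure D1:**
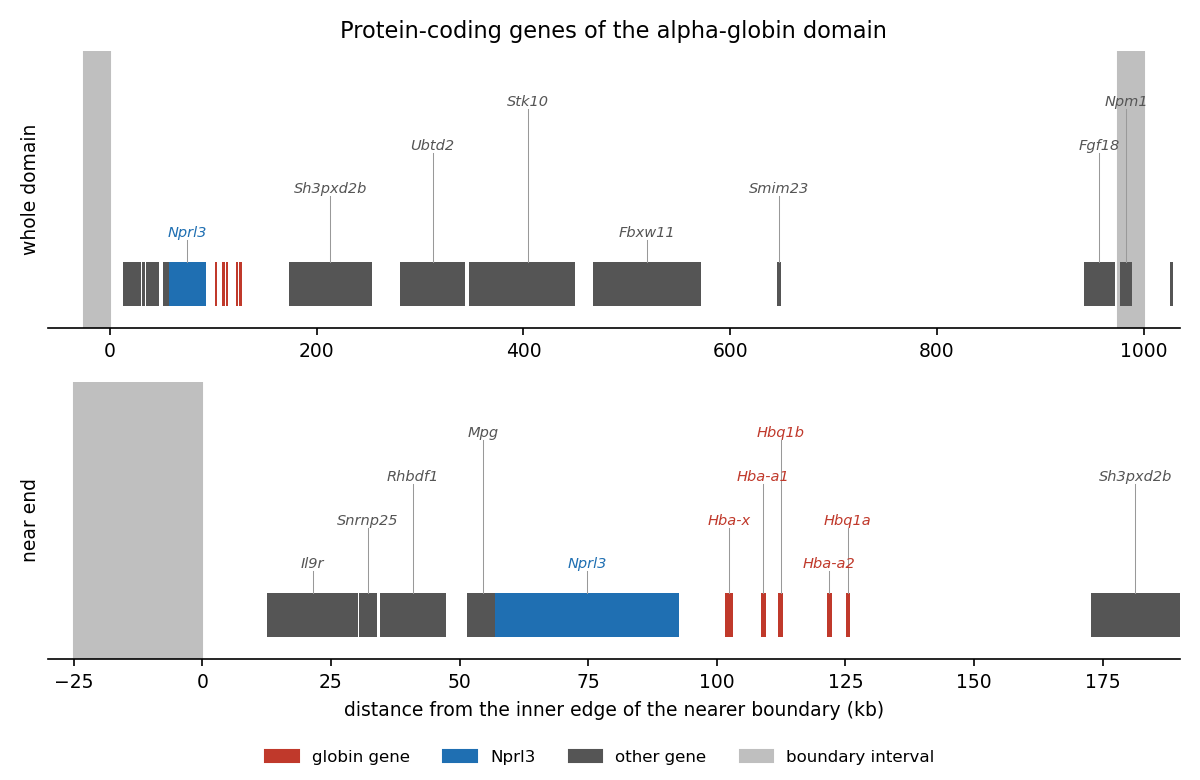
Protein-coding genes of the alpha-globin domain drawn to scale against the distance from the inner edge of the lower boundary (kb), for the whole domain (top) and its lower end (bottom). Grey bars are the 25 kb boundary intervals, and the globin genes (red) sit between 102 and 125 kb with Nprl3 (blue) between them and the boundary.

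At the beta locus, the 4 genes lay in a domain of 1425 kb, chr7:102500001-103925000, and close to its higher end. Hbb-y, an embryonic gene, was nearest to the higher boundary (chr7:103925001-103950000), at 71.8 kb (chr7:103851754-103853207). The embryonic Hbb-bh1 lay at 81.8 kb (chr7:103841638-103843162). The adult genes lay farther in, Hbb-bs at 97.1 kb (chr7:103826523-103827928) and Hbb-bt at 111 kb (chr7:103812524-103813923). The other boundary was between 1313 kb (Hbb-bt) and 1352 kb (Hbb-y) away, so the nearer ends of all 4 lay within 7.79% of the domain length from its higher edge. Hbb-y, Hbb-bs and Hbb-bt run on the minus strand, away from the nearer boundary. The cluster also holds Hbb-bh2, annotated as protein-coding, at 84.3 kb and the pseudogene Hbb-bh3 at 91.3 kb, and its 5 protein-coding globin genes spanned 40.7 kb, or 2.86% of the domain.

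Nearly all other genes of the beta domain encode olfactory receptors, the odorant receptors of nasal sensory neurons. Of 83 protein-coding genes, 74 (89.2%) were olfactory receptor genes, 5 were globin genes, and the other 4 were Trim21 and Trim68, both of the tripartite motif family, and Usp17lc and Usp17ld, both of a deubiquitinase family. The receptor genes enclosed the globin genes on both sides. Olfr66, Olfr64, Olfr65 and Olfr631 lay between Hbb-y and the higher boundary, and 70 lay on the far side of Hbb-bt, with Olfr67 the nearest of them. The domain also held 28 pseudogenes, of which 20 were olfactory receptor pseudogenes, and 1 long noncoding RNA gene.

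Both boundaries of the beta domain lay inside the receptor array or at its edge. The higher interval crossed an end of Olfr631 and held Olfr632 and Olfr633, with Olfr65 17.6 kb before it and Olfr635 29.2 kb after it. The lower interval, chr7:102475001-102500000, held Olfr543, Olfr544 and Olfr545. The first receptor gene inside the domain on that side was Olfr547, 34.7 kb from the interval, and the nearest gene outside was Rrm1, which encodes the large subunit of ribonucleotide reductase, at 5.23 kb. The domains on either side were 225 kb each. The beta domain was 6.33 times as long as the longer of its neighbours, and that ratio was lower in 99.5% of 3455 domains with a neighbour on each side. The same ratio for the alpha domain was 1.3, and it was lower in 76.6%.

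**Figure D2:**
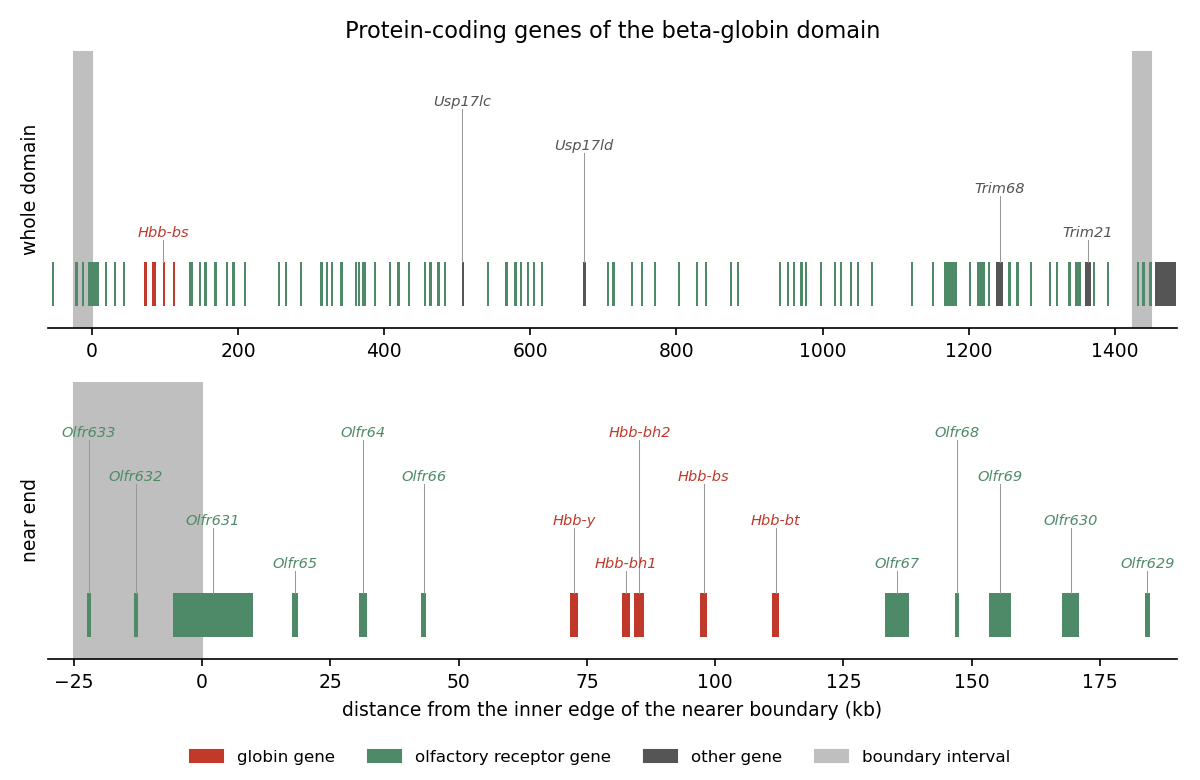
Protein-coding genes of the beta-globin domain drawn to scale against the distance from the inner edge of the higher boundary (kb), so that higher coordinates are on the left, for the whole domain (top) and the end that holds the globin genes (bottom). Grey bars are boundary intervals, and the globin genes (red), with Hbb-y at 71.8 kb and Hbb-bt at 111 kb, have olfactory receptor genes (green) on both sides.

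The loci had an arrangement in common. In each, the embryonic globin gene or genes lay nearer to the closer boundary than the adult genes did, and the globin genes with a known strand were transcribed away from it. The nearer boundary was the one on the enhancer side, which is the Nprl3 side of the alpha genes and the Hbb-y side of the beta genes. The order within a locus follows from gene positions alone, since all its genes are measured to 1 boundary. The loci differed in surroundings, with 1.74 protein-coding genes per 100 kb of domain at the alpha locus and 5.82 at the beta locus, where the median of all 3495 domains was 0.667. In gene density the alpha domain exceeded 82% and the beta domain 99.4% of domains.

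None of the 8 genes was near a boundary. With an end inside an interval or within 10 kb counted as near, 0 of 8 globin-locus genes were near, and 18.3% of all protein-coding genes were. Within 50 kb the count was again 0 of 8, against 35.6% of all protein-coding genes. The genes of a locus share 1 boundary, so the 8 genes amount to 1 position for each locus and not to 8 separate observations. The distances of the 8 genes ran from 57 to 121 kb with a median of 99.3 kb. All protein-coding genes had a median of 98.9 kb and quartiles of 22.8 and 229 kb, so each of the 8 fell between these quartiles.

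The order of the 8 distances was Nprl3, Hbb-y, Hbb-bh1, Hbb-bs, Hba-x, Hba-a1, Hbb-bt and Hba-a2. Nprl3 at 57 kb was farther from a boundary than 38% of protein-coding genes and Hba-a2 at 121 kb farther than 55.5%, with the other 6 between these values. Genes of different loci that are neighbours in this order differ by less than the 25 kb interval, so their order is not resolved. As a share of domain length the 8 genes lay between 5.04% (Hbb-y) and 12.5% (Hba-a2) from the nearer edge, where the median protein-coding gene in a domain lay at 17.7%. By that measure Hbb-y was farther in than 22.8% of genes and Hba-a2 than 39.6%.

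**Figure D3:**
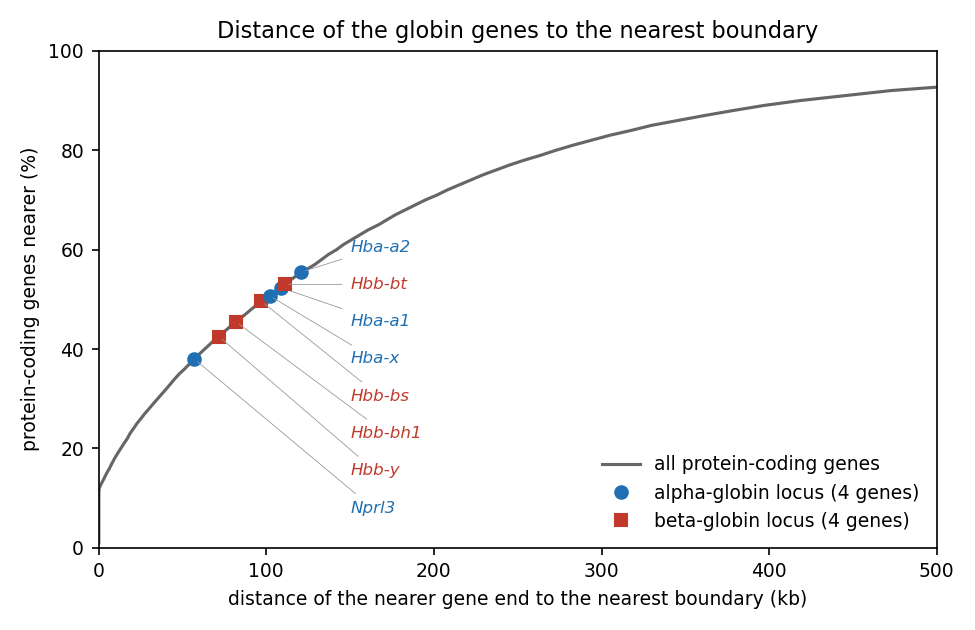
Percentage of all 21521 protein-coding genes that lie nearer to a boundary (y axis) against the distance of the nearer gene end to the nearest boundary (kb, x axis, shown up to 500 kb). The grey line is all protein-coding genes, and the 4 genes of each locus fall on its middle part, between 57 and 121 kb.

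No boundary split either cluster. The 9 pairs of neighbouring genes from Nprl3 to Hbq1a and from Hbb-bt to Hbb-y had midpoints at most 27.5 kb apart, and 0 of 9 had a boundary between them. Over all neighbouring protein-coding genes under 50 kb apart, 6.19% of 11579 pairs had a boundary between their midpoints. Those pairs include ones farther apart than the globin pairs. The 0 of 9 adds nothing to the distances above, since each cluster lies in 1 domain, and with so low a share it was not tested. Gaps between neighbouring genes were 2.48 kb (Hba-a1 to Hbq1b) to 8.89 kb (Nprl3 to Hba-x) at the alpha locus. At the beta locus they were 0.903 kb (Hbb-bh2 to Hbb-bh1) to 12.6 kb (Hbb-bt to Hbb-bs). All 9 gaps are shorter than the 25 kb interval, so the list could not place a boundary within any one of them.

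Of the 4 boundaries that flank the domains, 3 had a protein-coding gene ending inside them or within 10 kb. Over all boundaries that share was 64.3%. The exception was the lower boundary of the alpha domain, the one nearest to the alpha-globin genes, where Il9r at 12.5 kb was just outside that distance. Within 1 Mb of the globin genes lay 4 boundaries at the alpha locus and 3 at the beta locus.

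Both domains were longer than most. The median domain was 500 kb, 80.1% of domains were shorter than the alpha domain, and 90.8% were shorter than the beta domain. Set beside domains within 20% of its length, the alpha domain with its 17 genes had more than the median of 4 (quartiles 2 and 12), and 68 of these 458 domains held more. The beta domain with 83 genes had the most of 276 domains of like length, whose median was 3 (quartiles 1 and 10). That rank depends on the 20% limit, since the longest of these domains was 1700 kb. A domain of 1725 kb on chromosome 2 held 84. Over all domains, 4 held more protein-coding genes than the beta domain.

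Olfactory receptor genes lay in 73 domains, with a median of 6 in each. Only 3 domains held more of them than the 74 of the beta domain: 87 in a domain of 2175 kb on chromosome 9, and 84 in each of a pair of domains, of 1725 and 2325 kb, on chromosome 2. The beta domain was shorter than these and was the one with the globin genes. Its receptor genes lay at a median of 362 kb from a boundary. The median was 254 kb for all 1109 receptor genes and 89.5 kb for the 4 beta-globin genes. These sets are unlike, since the 74 have their midpoints inside a long domain. The 1109 include genes of shorter domains and genes inside boundary intervals. Of the 74, 1 was within 10 kb and 5 were within 50 kb of a boundary. Of all 1109 receptor genes 48 and 131 were, and of all protein-coding genes 18.3% and 35.6%. Receptor genes with a midpoint inside a flanking interval, such as Olfr543 and Olfr632, are not among the 74.

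**Figure D4:**
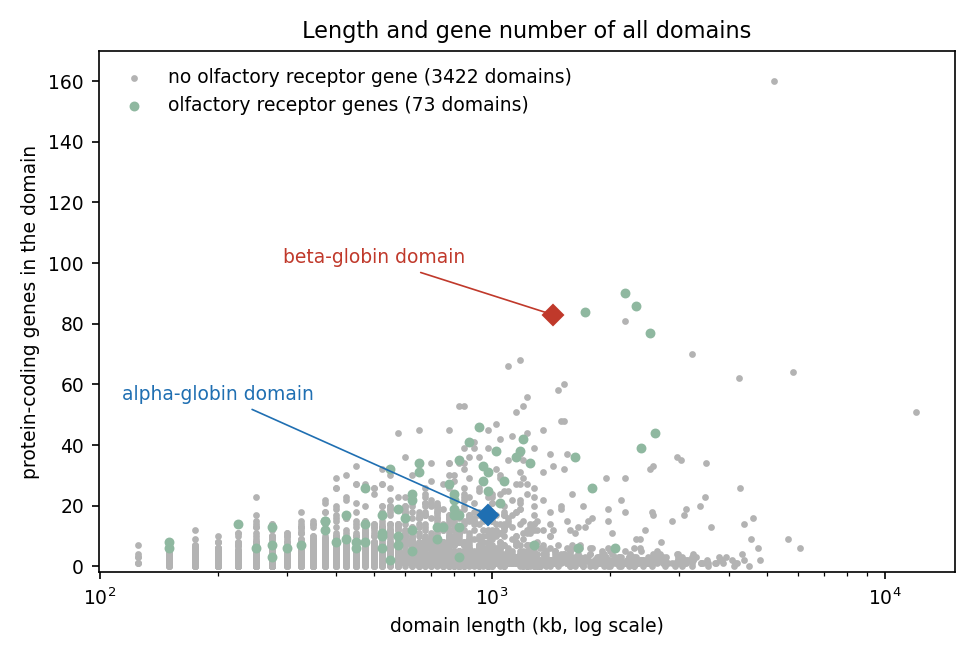
Number of protein-coding genes (y axis) against length (kb, logarithmic x axis) for each of the 3495 domains, with domains that hold olfactory receptor genes in green. The beta-globin domain (red, 83 genes) lies next to the receptor domains with the most genes, and the alpha-globin domain (blue, 17 genes) lies among the domains of like length.

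Globin-related sequences outside the clusters lay in other surroundings. The alpha-globin pseudogene Hba-ps3 on chromosome 15 lay 96.9 kb from a boundary in a domain of 250 kb, and Hba-ps4 on chromosome 17 lay 11.3 kb from a boundary in a domain of 175 kb. Of the 4 globins used in other tissues, Adgb, which encodes the androglobin of testis and ciliated cells, had an end inside a boundary. Myoglobin (Mb), the oxygen store of muscle, lay at 65.5 kb, cytoglobin (Cygb) at 195 kb and neuroglobin (Ngb) at 347 kb. These 4 lie on different chromosomes, whereas the 8 genes of the globin loci sit in clusters that each share a boundary. The ranges of their distances are therefore not comparable.

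The other genes of the red cell programme were placed in the same way, from lists of transcription factors, heme synthesis enzymes, and membrane, receptor and iron genes. With the 4 other globins, 41 of 42 listed genes had a position, all but Ahsp. Of these, 6 (14.6%) were near a boundary, where the share over all protein-coding genes was 18.3%. Within 50 kb there were 16 (39%), where the share over all was 35.6%, and the median distance of the 41 was 76.6 kb. Both shares lie near the background.

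Among 14 transcription factors of red cell development and globin switching, 2 were near a boundary. Ldb1, the bridging factor that joins the locus control region to the beta-globin genes in red cells, lay at 1.86 kb, and Sox6, a repressor of embryonic globin, at 9.22 kb. Gata1, the master regulator of the lineage, lay at 123 kb, Tal1 at 106 kb, Nfe2 at 48.2 kb, Lmo2 at 18.1 kb and the Gata1 cofactor gene Zfpm1 at 262 kb. Klf1, the factor that binds CACCC boxes of the adult beta-globin promoter, lay at 170 kb in a domain of 400 kb with 26 protein-coding genes. Bcl11a, a repressor of fetal and embryonic globin that was singled out after its values had been seen, lay at 76.6 kb as the 1 protein-coding gene of a domain of 1850 kb.

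Of 9 heme synthesis genes, 1 was near a boundary: Alad, the enzyme after aminolevulinate synthase, lay with an end inside an interval. Alas2, the synthase of red cells, lay at 47.4 kb and Alas1, the synthase of other tissues, at 83.5 kb. The later enzymes Uros, Urod and Cpox lay at 36.1, 231 and 69.6 kb. Of 14 membrane, receptor and iron genes, 2 were near a boundary, among them Rhd, the Rh antigen, at 3.83 kb. The erythropoietin receptor gene Epor lay at 359 kb and the transferrin receptor gene Tfrc at 17.2 kb. Of the membrane skeleton, Slc4a1 (band 3) lay at 73.8 kb, Sptb (beta spectrin) at 205 kb and Ank1 (ankyrin) at 24.8 kb.

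**Figure D5:**
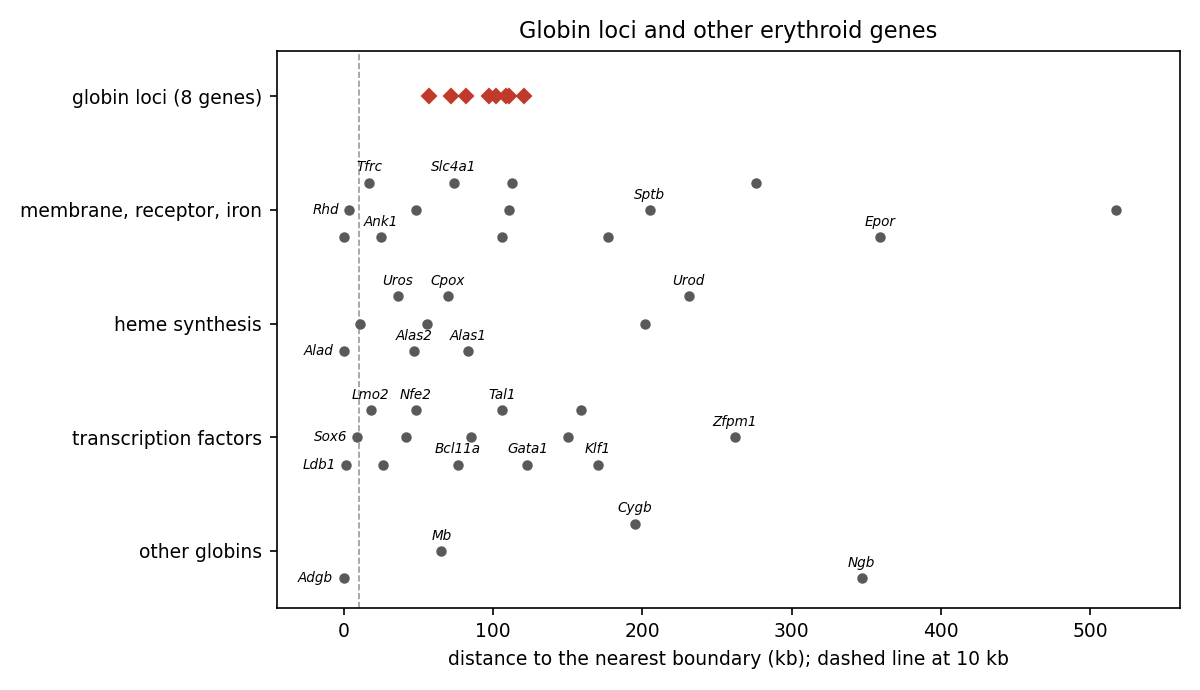
Distance to the nearest boundary (kb) for the 8 genes of the globin loci (red diamonds) and for 41 other globin and red cell genes (grey points, spread vertically within each list for legibility, with the genes named in the text labelled). The 8 genes sit between 57 and 121 kb, and 6 of the 41 others lie at or left of the dashed line at 10 kb.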

How the data were processed

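Micro-C libraries of RAD21-dTAG stem cells and epiblast-like cells were made by the authors. The submitters' processing notes name BWA 0.7.17, Juicer 1.22.01 and mm10. The deposited file used here gives chromosome, start and end for 3515 intervals made from 6 DMSO stem cell libraries together, with no score or other value. How boundaries were called is not stated in the sources used here.

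Positions are counted from 1. The distance of a gene is that from its nearer end to the edge of the nearest interval, and is 0 for an end inside it. A gene belonged to the domain that holds its midpoint. Genes came from RefSeq GRCm38.p6, with 345 scaffold genes (110 protein-coding) left out, which kept 49209 genes. Strand came from the RefSeq promoter table. Promoters were compared by global alignment. Distances and domains were tested on simulated data.

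The members and gene lists were chosen with earlier results of these data known. Genes named are the 8 members, other globin genes, genes of the domains and flanking boundaries, red cell list genes within 10 kb of a boundary, and otherwise at most 6 per list in list order. Alternatives varied the window, the point of the gene, the boundary positions and the rule for domain members. In the growth protocol of 6 libraries labelled as stem cells (dTAG and A485), epiblast-like cells are mentioned, and these were not used. Protein sequences were not analysed here, and some listed genes are counted but not reported here singly. Python 3.11.15, numpy 2.4.6, pandas 2.3.3, biopython 1.88 and matplotlib 3.10.9 were used.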

Additional observations from a re-analysis of the deposited data

How the results depend on the processing

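No paired analysis was possible because the list was made from pooled libraries and holds no replicate values, so no replicate could be left out either. The count of globin-locus genes near a boundary was 0 without a window, with 50 kb and by gene midpoint. It was also 0 by start of transcription and with all boundaries moved 25 kb either way. Hbb-bh1 had no matched start, so every result by start of transcription covers the other 7 genes. Their median distance was 84 to 112 kb over moved boundaries and other points of the gene or interval, and the order within each locus changed in 0 of 5 settings. Moved boundaries could not change that order, since they shift all genes of a locus equally. They shift the alpha and beta loci in opposite directions, which the median hides. The start of transcription, the moved boundaries for the red cell lists and the count over neighbouring pairs were chosen after seeing the data. Single-gene distances moved by 25 kb or more in 17 of 39 values, within 32 to 146 kb, all but that of the Nprl3 start (92.7 kb) with moved boundaries.

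Red cell list genes near a boundary numbered 3 without a window, 16 with 50 kb, 2 by midpoint and 2 by start of transcription. The share of all protein-coding genes was then 11.7, 35.6, 11.2 and 12.2%. Of the 41 list genes with a position, the share near a boundary was below these values except with 50 kb. The counts are small, and the difference was not tested. With all boundaries moved 25 kb to lower or to higher coordinates, the list genes numbered 7 and 4. The share of all protein-coding genes was not computed for moved boundaries, so these counts have no background beside them. The alpha domain measured 1000 kb between interval midpoints, 1200 kb without its lower boundary and 1750 kb without its higher one, and the beta domain 1450, 1675 and 1675 kb. With whole genes inside, or with any overlap, the alpha domain held 17 protein-coding genes and the beta domain 82 or 83. With all genes except pseudogenes counted, they held 20 and 85. Leaving out a flanking boundary stands for one that the caller added in error. A boundary missed inside a domain would act the other way, making the domain shorter than given, and no setting covers it. With no score or contact depth, neither was tested.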
